A study of Mus musculus with 4 samples.

Results

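Inflammasomes are protein platforms that form inside a cell when a sensor protein meets a microbial product or a sign of damage. The sensor binds the adaptor ASC, ASC gathers caspase-1, and caspase-1 cuts the precursors of interleukin-1β and interleukin-18 as well as the pore-forming protein gasdermin D. Pores in the plasma membrane release the cytokines and can end in pyroptosis, an inflammatory form of cell death. Neutrophils are known to release interleukin-1β and often to resist pyroptosis under conditions that kill macrophages. The genes described here are 9 named members of this machinery out of 18894 genes listed in the tumor and blood RNA tables. They are the sensors Nlrp3, Aim2, Naip5 and Nlrp12, the adaptor gene Pycard (which encodes ASC), the caspases Casp1 and Casp4, and the gasdermins Gsdmd and Gsdme. They were chosen by name.

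The study profiled neutrophils from tumors and from blood of 3 FVB mice, an inbred strain, each bearing tumors grown from 1000000 injected Py7160 mouse mammary tumor cells and given no treatment. The tumor group is neutrophils from tumors of about 1 cm, collected 2 to 3 weeks after injection and released by enzymatic digestion, and the blood group is neutrophils from blood of tumor-bearing mice after red-cell lysis. Both groups were enriched through Ly6G to about 90% and sorted as CD11b+ Ly6G+ cells to over 99%, and tumor-free mice were not analysed here. Mice carried hashtag antibodies and were pooled into 1 Drop-seq RNA library and 1 hashtag library per tissue, so effects of tissue, library and release method cannot be told apart. The labels do not say whether a hashtag number stands for the same mouse in both tissues.

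After filtering (at least 200 detected genes, at most 15% mitochondrial UMIs, at least 70% of hashtag counts from a single hashtag), 841 tumor cells and 1375 blood cells were assigned to mice, and no barcode was shared between the libraries. A UMI is a counted RNA molecule. Tumor mice 1, 2 and 3 held 106, 564 and 171 cells with 70612, 385370 and 116862 UMIs, and blood mice 1, 2 and 3 held 511, 456 and 408 cells with 436713, 380059 and 330296 UMIs. All 11 neutrophil markers, led by S100a8, were detected in both tissues, with summed levels of 78845 to 92062 in tumor and 181910 to 209867 in blood. These and all later levels are in CPM, a gene's UMIs per 1000000 UMIs of the same mouse and tissue. Macrophage markers summed to 297 to 2105 CPM in tumor and 222 to 291 CPM in blood, where C1qa, C1qb, C1qc, Mrc1, Ms4a7 and Trem2 were among those at 0. MHC class II and dendritic markers summed to 156 to 2857 CPM in tumor, where Flt3, Ccr7 and Xcr1 were at 0, and to 36.6 to 139 CPM in blood, where Flt3, Xcr1 and Zbtb46 were at 0. Hemoglobin and other erythroid genes were at 0 in tumor and summed to 13960 to 22154 CPM in blood. The assignment of tumor mouse 2 depended on the method: 230 of its 564 cells were negative with HTODemux, an alternative caller, and in those cells Camp, a granule gene, stood at 4125 CPM, against 11.0 CPM in the HTODemux singlets of that mouse.

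The promoters of the sensors that differed most between the tissues and of Casp4 are shown, because Nlrp3 and Casp4 are induced through NF-kB in macrophages and Nlrp12 is described as a brake on NF-kB signaling. Each covers 250 bases before to 50 bases after a start site annotated by RefSeq on GRCm38.p6, 5′ to 3′ on the strand of the gene, with letters that match the NF-kB motif in capitals. For Nlrp3 and Casp4 it is the upstream of 2 annotated start sites. Nlrp3 lies at chr11:59541319-59541618 on the plus strand, Casp4 at chr9:5308599-5308898 on the plus strand, Aim2 at chr1:173420354-173420653 on the plus strand and Nlrp12 at chr7:3249691-3249990 on the minus strand.
Nlrp3: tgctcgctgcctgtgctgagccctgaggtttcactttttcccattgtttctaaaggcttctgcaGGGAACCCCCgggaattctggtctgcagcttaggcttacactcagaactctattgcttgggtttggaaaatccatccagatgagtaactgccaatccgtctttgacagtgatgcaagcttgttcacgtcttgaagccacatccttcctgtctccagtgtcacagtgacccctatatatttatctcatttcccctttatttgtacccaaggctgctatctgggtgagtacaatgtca
Casp4: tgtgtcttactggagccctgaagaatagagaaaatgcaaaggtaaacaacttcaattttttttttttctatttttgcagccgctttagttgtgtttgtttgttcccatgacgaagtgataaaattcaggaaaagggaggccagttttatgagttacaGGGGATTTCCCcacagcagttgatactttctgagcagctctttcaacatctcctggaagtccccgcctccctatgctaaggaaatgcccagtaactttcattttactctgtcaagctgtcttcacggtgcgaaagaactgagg
Aim2: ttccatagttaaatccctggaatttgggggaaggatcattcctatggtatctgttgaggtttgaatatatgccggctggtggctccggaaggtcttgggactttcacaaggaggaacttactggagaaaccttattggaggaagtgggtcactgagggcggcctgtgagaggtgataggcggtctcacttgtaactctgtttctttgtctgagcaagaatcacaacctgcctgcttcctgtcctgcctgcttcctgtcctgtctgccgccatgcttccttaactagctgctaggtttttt
Nlrp12: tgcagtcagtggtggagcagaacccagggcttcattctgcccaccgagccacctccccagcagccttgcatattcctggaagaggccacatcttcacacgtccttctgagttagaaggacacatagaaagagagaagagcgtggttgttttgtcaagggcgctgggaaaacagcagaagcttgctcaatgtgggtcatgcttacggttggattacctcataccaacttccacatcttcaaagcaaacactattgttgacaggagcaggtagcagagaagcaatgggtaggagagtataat
The Nlrp3 match lay at -186 relative to the start site, on the opposite strand, and the window of the other Nlrp3 start site, at chr11:59542436-59542735, held none. The Casp4 match was made of overlapping hits on both strands from -93, and the windows of both Casp4 start sites held it. Naip5 also held an NF-kB match, at -218, and the motif was present in 4.51% of all 32851 RefSeq promoters of this length. No match to the interferon response motif GAAANNGAAA, which 3.44% of those promoters hold, was found on either strand of the promoters of the 8 genes in the table (all but Gsdmd). A match describes letters in the window and is no evidence of binding.

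Summed RNA of the tumor library held more of the sensors Nlrp3 and Aim2, and less of Casp1, Gsdme and Nlrp12, than that of blood. Nlrp3 was 7.64-fold and Aim2 3.58-fold higher in summed CPM, whereas Casp1, Nlrp12 and Gsdme were 3.70-fold, 8.63-fold and 11.8-fold lower in tumor. Casp4 and Gsdmd did not pass the test, and Pycard and Naip5 were too sparse to test. UMIs were summed per mouse and tissue, and 3 tumor sums were set against 3 blood sums in a quasi-likelihood fit with edgeR, Benjamini-Hochberg adjusted over 3674 genes. Of the 7 genes tested, 2 were called higher and 3 lower in tumor at an adjusted p of 0.05. Among all genes tested, 60.0% were called, 30.2% higher and 29.8% lower, so the share among these genes (5 of 7) is to be read against a large general difference. Their median log2 fold change was -0.53, beside -0.04 over all genes tested. In such sums, fewer cells that carry an RNA and less RNA per cell cannot be told apart.

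**Figure D1:**
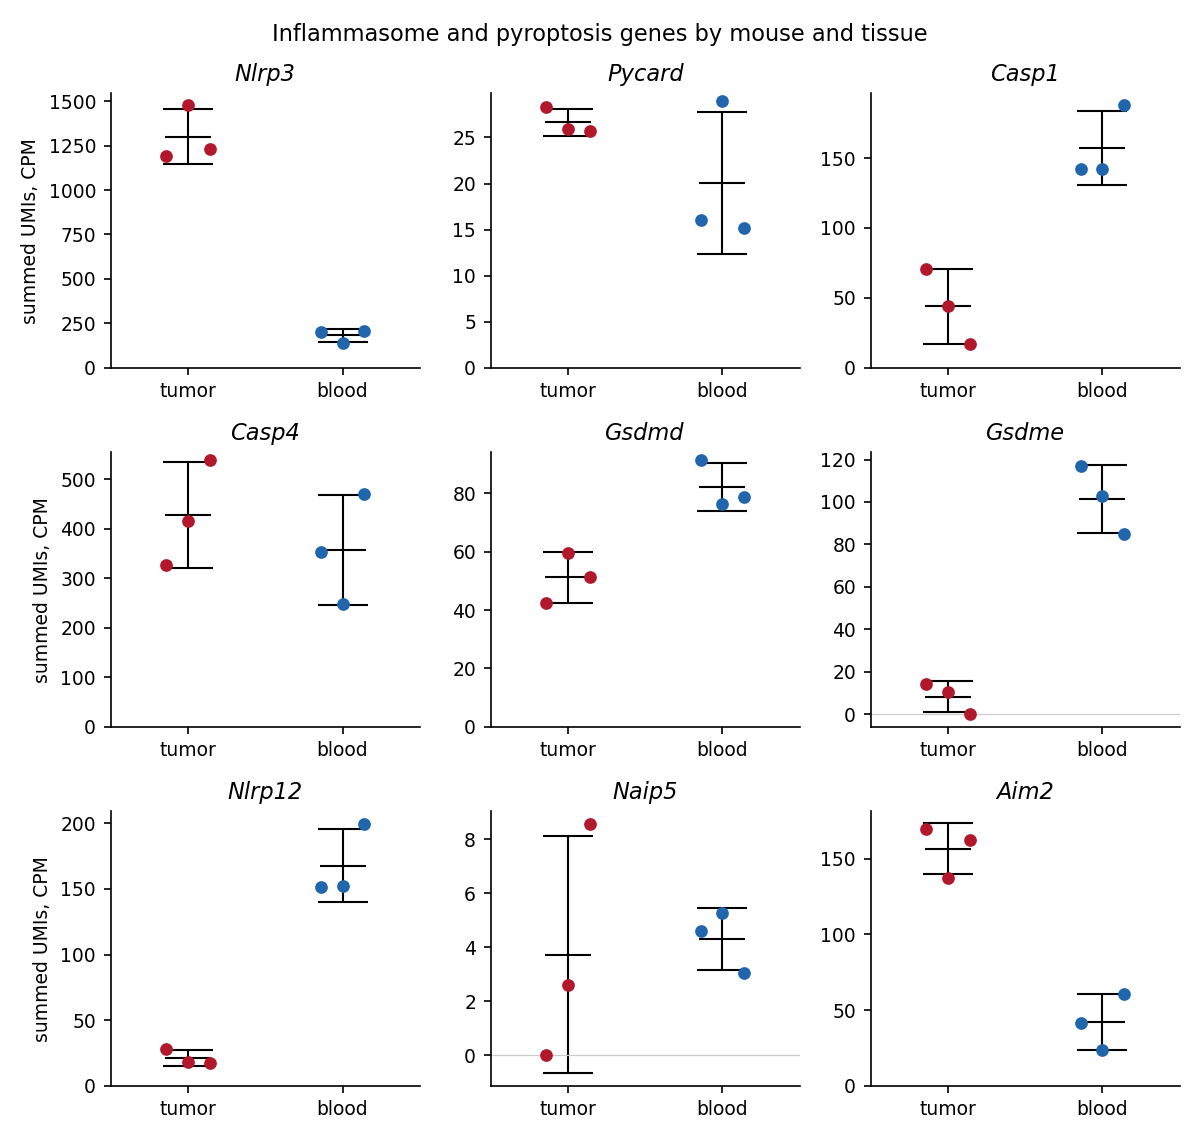
Level of each gene in CPM of summed UMIs (vertical axes, each from 0 with its own range) in tumor (red, left) and blood (blue, right). Points are mice and lines are the mean ± SD of 3 mice. Nlrp3 and Aim2 stood higher in every tumor mouse than in any blood mouse, Casp1, Gsdmd, Gsdme and Nlrp12 lower, and Pycard, Casp4 and Naip5 overlapped.

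Nlrp3, on chr11:59541568-59566956, encodes the sensor that responds to potassium loss, crystals and membrane damage, and its RNA level is known to limit assembly in macrophages. Nlrp3 had 1190, 1477 and 1232 CPM (84, 569 and 144 UMIs) in tumor mice 1, 2 and 3, against 202, 139 and 206 CPM (88, 53 and 68 UMIs) in blood mice 1, 2 and 3. The lowest tumor mouse stood far above the highest blood mouse. The means were 1299 ± 155 CPM in tumor and 182 ± 37.2 CPM in blood (SD, n = 3 each), and edgeR gave a log2 fold change of 2.89 (SE 0.17, adjusted p = 2.19e-10). Of the 797 tumor Nlrp3 UMIs, 93 came from the 68 cells with at least 2 macrophage or MHC class II marker UMIs, at 1352 CPM there. Without such cells, but with those holding 1 marker UMI, the log2 fold change was 2.99. In tumor mouse 2 the cells negative with HTODemux held 1031 CPM and its HTODemux singlets 1837 CPM, and the log2 fold change with HTODemux assignment was 3.01.

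Aim2, on chr1:173350879-173466040, encodes the sensor of double-stranded DNA in the cytosol. Aim2 had 170, 138 and 163 CPM (12, 53 and 19 UMIs) in tumor mice 1, 2 and 3, against 41.2, 23.7 and 60.6 CPM (18, 9 and 20 UMIs) in blood mice 1, 2 and 3. Every tumor mouse stood above every blood mouse. The means were 157 ± 17.0 CPM in tumor and 41.8 ± 18.4 CPM in blood (SD, n = 3 each), with an edgeR log2 fold change of 1.89 (SE 0.30, adjusted p = 4.61e-05). Of the 30-base stretches in the last 500 bases of its transcripts, where Drop-seq reads lie, 3.95% also occur in transcripts of other genes.

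Naip5, on chr13:100211739-100246323, encodes the receptor that passes bacterial flagellin to the NLRC4 inflammasome. It was at the limit of detection, with 0, 1 and 1 UMIs in tumor mice 1, 2 and 3, against 2, 2 and 1 UMIs in blood mice 1, 2 and 3. The ratio of summed CPM, tumor over blood, was 0.801 with an exact 95% interval of 0.0763 to 4.89, which covers counting error only and leaves the direction unresolved. Of the 30-base stretches at its 3′ end, 13.4% also occur in transcripts of other genes, so its count is uncertain. Naip5 belongs to a family of similar genes, but those sharing the most stretches were Ccar1, Echs1, Bicd1 and Cpt1a. Its partner Nlrc4, named after its values were seen, had 2 UMIs in tumor and 1 UMI in blood.

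Nlrp12, on chr7:3218784-3249740, encodes an NLR protein expressed mainly in myeloid cells, described both as a sensor and as a brake on inflammatory signaling. Nlrp12 had 28.3, 18.2 and 17.1 CPM (2, 7 and 2 UMIs) in tumor mice 1, 2 and 3, against 151, 153 and 200 CPM (66, 58 and 66 UMIs) in blood mice 1, 2 and 3. No tumor mouse came near the blood range. The means were 21.2 ± 6.19 CPM in tumor and 168 ± 27.7 CPM in blood (SD, n = 3 each), with an edgeR log2 fold change of -3.04 (SE 0.33, adjusted p = 6.67e-07). Of all Nlrp3 and Nlrp12 UMIs together, Nlrp3 made up 98.4% ± 0.601 in tumor and 51.9% ± 4.80 in blood (SD, n = 3 each; exact two-sided permutation p = 0.1, the smallest that 3 against 3 mice allow). Of the 30-base stretches at the 3′ end of Nlrp12, 7.01% also occur in other annotated transcripts, those of the microRNA gene Mir292b within it.

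Pycard, on chr7:127989708-127993867, encodes the adaptor ASC, which joins sensors to caspase-1. It was sparse in both tissues, with 28.3, 25.9 and 25.7 CPM (2, 10 and 3 UMIs) in tumor mice 1, 2 and 3, against 16.0, 28.9 and 15.1 CPM (7, 11 and 5 UMIs) in blood mice 1, 2 and 3. The groups overlapped, and Pycard was under the low-count filter. The ratio of summed CPM, tumor over blood, was 1.31 with an exact 95% interval of 0.634 to 2.61 (counting error only), which does not set a direction.

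Casp1, on chr9:5298517-5307265, encodes the inflammatory caspase that ASC activates. Casp1 had 70.8, 44.1 and 17.1 CPM (5, 17 and 2 UMIs) in tumor mice 1, 2 and 3, against 142, 142 and 188 CPM (62, 54 and 62 UMIs) in blood mice 1, 2 and 3. The tumor mice spread widely on few UMIs, yet the highest of them lay under the lowest blood mouse. The means were 44.0 ± 26.8 CPM in tumor and 157 ± 26.4 CPM in blood (SD, n = 3 each), with an edgeR log2 fold change of -1.84 (SE 0.31, adjusted p = 7.50e-05).

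Casp4, on chr9:5308828-5336783, begins 1562 bases after the end of Casp1 with no protein-coding gene between them, and encodes mouse caspase-11, which binds bacterial lipopolysaccharide directly and cuts gasdermin D. Casp4 had 326, 415 and 539 CPM (23, 160 and 63 UMIs) in tumor mice 1, 2 and 3, against 353, 247 and 469 CPM (154, 94 and 155 UMIs) in blood mice 1, 2 and 3. The groups overlapped, and edgeR gave a log2 fold change of 0.32 (SE 0.21, adjusted p = 0.204), which was -0.0079 without blood mouse 2. Of all Casp4 and Casp1 UMIs, Casp4 made up 89.8% ± 7.41 in tumor and 68.7% ± 4.53 in blood (SD, n = 3 each; exact two-sided permutation p = 0.1).

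Gsdmd, on chr15:75862327-75867408, encodes gasdermin D, the main pore former cut by caspase-1 and caspase-11. Gsdmd had 42.5, 59.7 and 51.3 CPM (3, 23 and 6 UMIs) in tumor mice 1, 2 and 3, against 91.6, 76.3 and 78.7 CPM (40, 29 and 26 UMIs) in blood mice 1, 2 and 3. All tumor mice lay below all blood mice, but edgeR did not call it, with a log2 fold change of -0.53 (SE 0.30, adjusted p = 0.136).

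Gsdme, on chr6:50188888-50263862, encodes gasdermin E, a pore former that granzyme B can cut. Gsdme had 14.2, 10.4 and 0 CPM (1, 4 and 0 UMIs) in tumor mice 1, 2 and 3, against 117, 103 and 84.8 CPM (51, 39 and 28 UMIs) in blood mice 1, 2 and 3. All 3 blood mice stood far above the tumor mice. The edgeR log2 fold change was -3.45 (SE 0.48, adjusted p = 1.12e-05), and blood over tumor the summed CPM had a ratio of 11.8 with an exact 95% interval of 4.91 to 37.0 (counting error only). The last 10052 bases of Gsdme overlap Mpp6 on the opposite strand, and whether counting used strand is not given in the sources used here. Mpp6, named after its values were seen, had 5 UMIs in tumor and 9 UMIs in blood. Of all Gsdmd and Gsdme UMIs, Gsdmd made up 86.7% ± 12.6 in tumor and 44.9% ± 2.87 in blood (SD, n = 3 each; exact two-sided permutation p = 0.1).

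**Figure D2:**
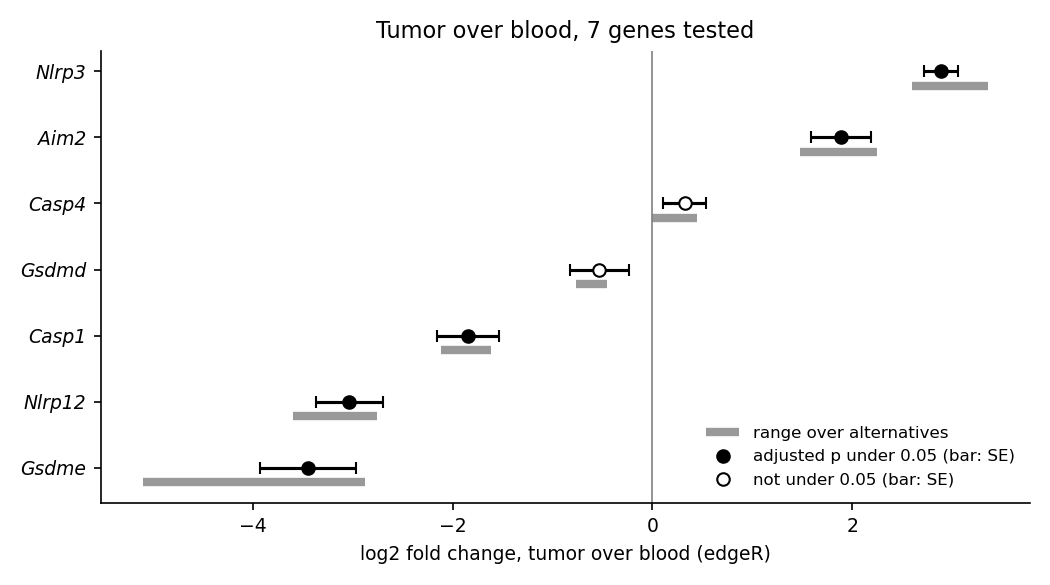
Log2 fold change, tumor over blood, of the 7 genes tested with edgeR (horizontal axis). Circles are the values reported with SE as thin bars, filled where the adjusted p was under 0.05, and grey bars span the alternatives in which a gene was tested. Nlrp3 and Aim2 stayed above 1.48 and Casp1, Nlrp12 and Gsdme below -1.62, whereas the bar of Casp4 reached -0.0079.

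In CPM, 6 of the 9 genes had mice that did not overlap between the tissues, all of them among the 7 tested, beside 63.0% of all genes tested. The share of cells with at least 1 UMI was then compared at equal depth, by the expected share after thinning every cell to 441 UMIs, which left 632 tumor and 1121 blood cells. At least 1 Nlrp3 UMI was expected in 37.6% ± 2.69 of tumor cells and 8.11% ± 1.77 of blood cells, and before thinning the shares were 44.5% ± 2.00 and 12.6% ± 2.03 (SD, n = 3 each). For Aim2 they were 6.29% ± 0.239 in tumor and 1.69% ± 0.277 in blood, for Nlrp12 0.716% ± 0.0790 and 7.18% ± 0.857, and for Casp1 1.83% ± 0.941 and 5.95% ± 2.01, tumor before blood each time. Gsdmd stood at 2.03% ± 0.656 in tumor and 3.52% ± 0.245 in blood, and Gsdme at 0.289% ± 0.256 and 4.11% ± 1.51. These 6 did not overlap between the mice (exact two-sided permutation p = 0.1 each, the smallest possible), beside 60.6% of all genes tested. Casp4 overlapped, with 13.7% ± 3.50 in tumor and 13.6% ± 2.68 in blood, as did Pycard and Naip5.

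Droplets also hold RNA from outside their cell, and no cell type that lacks these genes was available as a blank. Barcodes with 20 to 60 UMIs were used instead. Whether they hold only RNA from outside cells, or also cells with little RNA, was not tested. Their RNA was not the same as that of cells for every gene. Camp stood at 201 CPM in such tumor barcodes and 1519 CPM in tumor cells, and at 636 and 3370 CPM in blood. Nlrp3 stood at 1418 CPM in such tumor barcodes, beside 1391 CPM in tumor cells, and at 182 CPM both in such blood barcodes and in blood cells. At the thinned depth, pure RNA of this kind would give an Nlrp3 UMI in 46.5% of tumor cells and 7.72% of blood cells, an Aim2 UMI in 8.50% and 2.12%, a Casp4 UMI in 22.1% and 18.1%, and an Nlrp12 UMI in 0.982% and 15.2%, tumor before blood each time. Only the blood share of Nlrp3 was above these levels, by less than its SD. For Casp1 such RNA would give 1.47% and 5.89%, for Gsdme 0.492% and 7.06%, for Pycard 0.819% and 0.712% and for Naip5 0% and 0.178%, which lie near or above the shares in cells. The shares of these 8 genes are therefore not read as the share of cells that express them, and the tissue differences above describe the RNA of each library. For Gsdmd, 2.03% of tumor and 3.52% of blood cells held a UMI, beside 0.982% and 1.07% from such RNA. That reference rests on 6 UMIs in each tissue, and tumor mouse 3 stood at 1.27%. In tumor the 95% counting intervals overlapped, at 38.2 to 78.9 CPM in cells and 8.22 to 48.7 CPM in such barcodes. In blood they did not, at 67.0 to 101 CPM and 8.92 to 52.9 CPM.

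**Figure D3:**
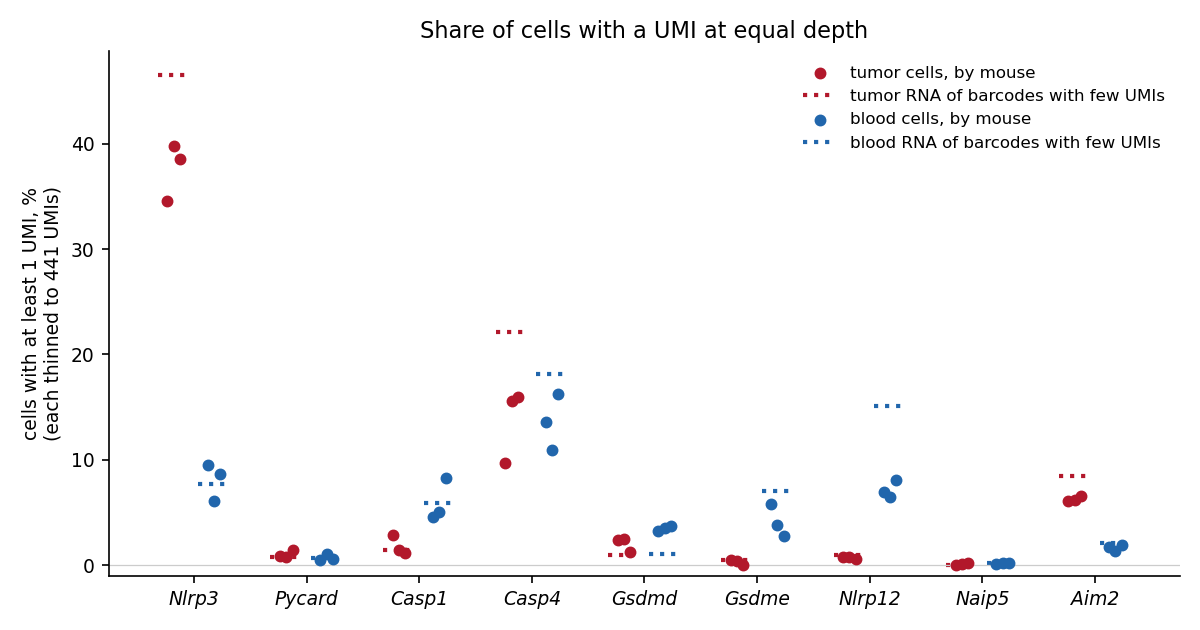
Percent of cells with at least 1 UMI of each gene after thinning every cell to 441 UMIs (vertical axis), in tumor (red, left of each pair) and blood (blue, right). Points are mice, and dotted lines give the share that pure RNA of barcodes with 20 to 60 UMIs would give. Tumor Nlrp3 stood at 34.6% to 39.8% in the mice, with its dotted line at 46.5%.

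UMIs of at least 2 of the genes were in 155 of 841 tumor cells (18.4%) and 228 of 1375 blood cells (16.6%). None of the 9 was seen in 322 of 841 tumor cells and 648 of 1375 blood cells, at a median depth of 570 to 586 UMIs in the tumor mice and 647.5 to 671 UMIs in the blood mice. UMIs of Nlrp3 and Casp4 together were in 90 tumor cells and 41 blood cells, and of Nlrp3 and Casp1 in 14 tumor cells and 20 blood cells. Such counts follow from the level of each gene and the depth of the cells, and no expected count was computed. A complete set of sensor, adaptor and protease (Nlrp3, Pycard and Casp1) was in 1 tumor cell and 0 blood cells, which allows a share of blood cells with all 3 UMIs of up to 0.218%.

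The wider pathway was described through 6 lists, whose counts are to be read against the 60.0% of all genes called. In the list of interleukin-1 family and other products, 4 of the 6 genes tested rose and 1 fell in tumor (median log2 fold change 2.69, also with Il1a at its bound). Il1a, which encodes the alarmin interleukin-1α, averaged 149 ± 10.2 CPM in tumor and had 0 UMIs in blood, so it was at least 59.4-fold higher (against 3 counts over the blood group). The decoy receptor gene Il1r2 averaged 3030 ± 371 CPM in tumor and 80.1 ± 19.2 CPM in blood (edgeR log2 fold change 5.26, adjusted p = 2.22e-13), and the receptor antagonist gene Il1rn 3843 ± 164 CPM and 155 ± 7.11 CPM, tumor before blood (log2 fold change 4.65). Alox5ap, needed for leukotriene synthesis, was lower, with 974 ± 275 CPM in tumor and 2094 ± 218 CPM in blood (log2 fold change -1.13). Il1b itself, named after its values were seen, averaged 10787 CPM in tumor and 6519 CPM in blood (log2 fold change 0.73, adjusted p = 0.000297).

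Among the priming regulators, which control transcription of the pathway, 6 of 15 tested genes rose and 4 fell (median 0.30). Tnf averaged 449 ± 81.0 CPM in tumor and 5.05 ± 1.93 CPM in blood (edgeR log2 fold change 6.34, adjusted p = 2.46e-11). Nfkbia and Nfkbiz, genes of the IkB family of NF-kB regulators that NF-kB itself induces, had log2 fold changes of 4.88 and 3.66. The kinase gene Mapk14, the Toll-like receptor adaptor gene Myd88 and Irf2, which is known to drive Gsdmd transcription, were lower in tumor, with log2 fold changes of -3.37, -2.29 and -1.91. Myd88 averaged 60.4 ± 39.2 CPM in tumor and 367 ± 8.42 CPM in blood. Mapk14 rested on few tumor UMIs, with 0, 1 and 4 in mice 1, 2 and 3.

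Among other sensors, 2 of 7 tested genes rose and 2 fell (median 0.19). Cd14, which hands lipopolysaccharide to TLR4, averaged 12076 ± 1152 CPM in tumor and 355 ± 73.5 CPM in blood (edgeR log2 fold change 5.10, adjusted p = 2.13e-14), and Tlr2 had a log2 fold change of 2.85. Card9, the adaptor of fungal receptors, and Nlrp1b, an inflammasome sensor, were lower, with log2 fold changes of -2.78 and -1.14. Both rest on few tumor UMIs: Card9 had 0, 4 and 0 and Nlrp1b 2, 7 and 1 in mice 1, 2 and 3.

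Among activators and brakes of assembly, 7 of 19 tested genes rose and 5 fell (median -0.02). The ubiquitin-editing brake gene Tnfaip3 averaged 389 ± 33.6 CPM in tumor and 5.82 ± 3.10 CPM in blood (edgeR log2 fold change 5.92, adjusted p = 3.92e-11). Cflar, an inhibitor of caspase-8, and Ddx3x, a helicase reported to help NLRP3 assemble, had log2 fold changes of 1.90 and 1.62. Txnip, reported to bind NLRP3 under oxidative stress, averaged 135 ± 9.32 CPM in tumor and 607 ± 107 CPM in blood (log2 fold change -2.12). Serpinb1a, an inhibitor of neutrophil serine proteases, and Trim30a, reported as a brake on NLRP3 in mice, were lower, with log2 fold changes of -1.65 and -1.61. Nek7, the kinase that binds NLRP3 directly and was named after its values were seen, did not pass (log2 fold change -0.66, adjusted p = 0.231).

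Among pore and repair genes, 3 of 11 tested rose and 3 fell (median -0.05). Ninj1, which ruptures the plasma membrane at the end of lytic death, averaged 953 ± 87.7 CPM in tumor and 96.7 ± 19.1 CPM in blood (edgeR log2 fold change 3.28, adjusted p = 4.87e-11). The membrane repair genes Vps4b and Chmp4b, of the ESCRT machinery, had log2 fold changes of 1.85 and 1.10, whereas Chmp1a had -1.76. The annexin genes Anxa1 and Anxa2 had -1.91 and -1.61. Chmp1a rested on few tumor UMIs, with 0, 5 and 0 in mice 1, 2 and 3. Of the list of other proteases and their substrates, the lysosomal protease gene Ctsb rose, with a log2 fold change of 3.53. Ctsb averaged 2897 ± 116 CPM in tumor and 253 ± 24.1 CPM in blood. Bid, whose product is cut by caspase-8, fell (-1.94), with 1, 5 and 0 UMIs in tumor mice 1, 2 and 3.

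**Figure D4:**
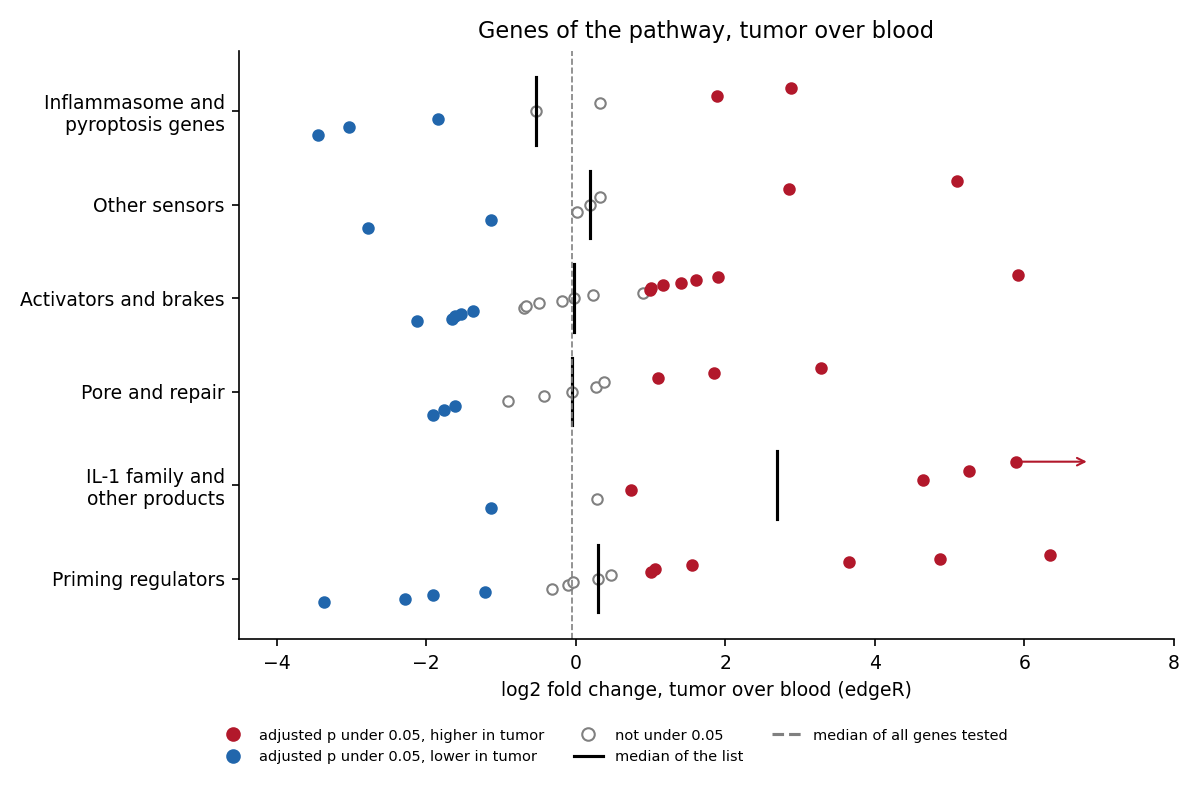
Log2 fold change, tumor over blood, of each gene tested with edgeR (horizontal axis), by list (rows). Red points were called higher and blue points lower in tumor, open points were not called, black bars are medians of the lists and the dashed line is the median of all genes tested (-0.04). The point with an arrow is Il1a at its lower bound. Both directions occur in all 6 rows.

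Neutrophils vary in maturity and activation, so the 9 genes were also compared between cell classes within a tissue, with the mouse as a block in edgeR. A class held the 20% of each mouse's cells with the largest share of UMIs in a fixed list, and such a class is a range of a score, not a cell type. For the granule list (8 genes, such as Camp, Ngp and Ltf), 57 tumor and 109 blood cells lay within 20% of the limit. In blood, granule-high cells had less Nlrp3: 67.5, 57.1 and 116 CPM in mice 1, 2 and 3, against 270, 179 and 247 CPM in the other cells of those mice. The edgeR log2 difference was -1.21 (SE 0.28, adjusted p = 0.00149) and lower in 3 of 3 mice. Casp1 stood at 189, 163 and 193 CPM in granule-high cells and 118, 132 and 185 CPM in the other cells, a small excess in each mouse (log2 difference 0.72, SE 0.25, adjusted p = 0.0319). The ratio of summed CPM, without the TMM scaling of that fit, was 1.28, with an exact 95% interval of 0.928 to 1.74 (counting error only) that includes no difference. These 2 of 7 genes tested compare with 23.0% of all genes tested outside the list. DESeq2 called neither (adjusted p = 0.177 and 0.656) and called 4.38% of genes, and Casp1 was not called with HTODemux (adjusted p = 0.220), with the highest 10% of cells (0.331), without mouse 1 (0.282) or without mouse 2 (0.0584).

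Nlrp12 had 81.0, 65.3 and 154 CPM in granule-high blood cells and 187, 194 and 221 CPM in other blood cells, lower in 3 of 3 mice but not called (edgeR log2 difference -0.68, adjusted p = 0.0734). Pycard had 16 UMIs in granule-high and 7 UMIs in other blood cells and was under the filter. Its ratio of summed CPM was 4.72, granule-high over other, with an exact 95% interval of 1.84 to 13.6 (counting error only). With the highest 10% of cells as the class, edgeR called Nlrp3 and Nlrp12 lower (log2 differences -1.66 and -1.29, adjusted p = 0.00034 and 0.00458). Granule-high blood cells were also deeper, with median UMIs of 985.5 to 1245.5 by mouse, against 606.5 to 616 in other cells, and the part of depth in these differences was not tested.

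In tumor, granule-high cells had 662, 822 and 1003 CPM of Nlrp3 in mice 1, 2 and 3, against 1352, 1687 and 1304 CPM in the other cells. Nlrp3 was lower in 3 of 3 mice and was the 1 gene called of 3 tested (edgeR log2 difference -0.63, SE 0.22, adjusted p = 0.0396), beside 12.2% of all genes tested. The call was lost without mouse 1 (-0.58, adjusted p = 0.0713), without mouse 2 (-0.53, 0.347), with HTODemux (-0.33, 0.421), with DESeq2 (-0.70, 0.497), without the mouse block (-0.61, 0.0950) and with the highest 10% of cells (-0.76, 0.0741), and it is given here as unstable. The difference between the tissues in the granule effect was not called for any of 7 genes tested in an interaction term (adjusted p of at least 0.760), beside 1.95% of all genes. The same term for the interferon class called 0 of 5 genes tested (adjusted p of at least 0.833), beside 0.234% of all genes.

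**Figure D5:**
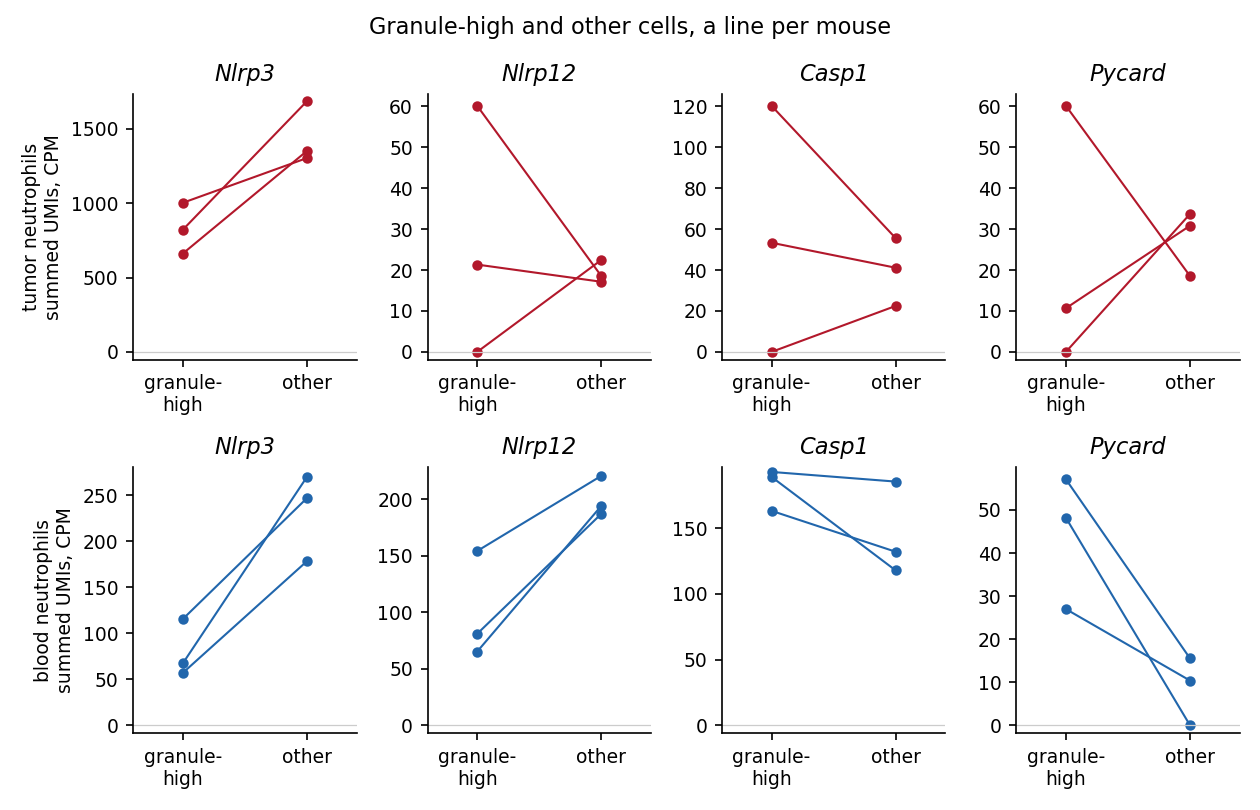
CPM of Nlrp3, Nlrp12, Casp1 and Pycard (vertical axes, from 0) in granule-high cells (left) and other cells (right) of tumor (top) and blood (bottom), with a line per mouse. Nlrp3 was lower in granule-high cells of all 3 mice in both tissues, and Pycard was higher in granule-high blood cells of all 3 mice.

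Interferon-high cells were those richest in 20 interferon-induced genes, such as Ifit1, Isg15 and Rsad2. In tumor, Nlrp3 stood at 1941, 1545 and 1819 CPM in interferon-high cells of mice 1, 2 and 3, against 979, 1459 and 1109 CPM in other cells. That was higher in 3 of 3 mice, but edgeR called none of the 3 genes tested (Nlrp3 log2 difference 0.53, adjusted p = 0.517), and 1 of them had an unadjusted p under 0.05. In blood none of 6 genes tested was called and 0 had an unadjusted p under 0.05. Casp4 came nearest, at 355, 420 and 552 CPM in interferon-high cells and 352, 207 and 449 CPM in other cells (log2 difference 0.37, adjusted p = 0.769). DESeq2 called 0 of the 9 in either tissue, and edgeR called 0.891% of all genes tested in tumor and 0.0423% in blood. Hypoxia-high tumor cells, the richest in 20 glycolysis and hypoxia genes such as Hilpda and Bnip3, showed 0 of 3 tested genes called with edgeR, 0 with an unadjusted p under 0.05 and 0 with DESeq2, beside 18.6% of all genes. Nlrp3 stood at 1051, 1688 and 1065 CPM in hypoxia-high cells and 1219, 1432 and 1264 CPM in other tumor cells, which overlapped.

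Each gene with at least 100 UMIs was also set beside all other tested genes by its pattern over the 6 sums, using the root mean square difference of log2 CPM centred on each gene's mean. Nearest to Nlrp3 were Canx, Tra2a and Eea1 (0.12, 0.15 and 0.17 log2 units). Nearest to Aim2 were Lasp1, Ppp2r2d and Ldha (0.16 to 0.20), to Casp1 Klhl28, Csnk1g1 and Twistnb (0.10 to 0.16), to Casp4 Arrdc4, Gm12183 and Mob1a (0.09 to 0.18), and to Gsdmd Ddx6, Tbl1xr1 and Psma7 (0.06 to 0.08). Nearest to Nlrp12 were Kif3b, 1600010M07Rik and Gm11346 (0.16 to 0.20) and to Gsdme Bmx, Grk6 and Zfp740 (0.21 to 0.26). Gm11346 had 39 UMIs in blood and 0 in tumor, so its centred values rest on the prior count of 2 used in log2 CPM and its likeness to Nlrp12 is uncertain. None of these 21 neighbours is one of the 9 genes. The 6 sums share 2 libraries, so such likeness largely restates the difference between the tissues.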

How the data were processed

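Drop-seq RNA and hashtag libraries of neutrophils from tumor and blood of 3 mice were used. The authors deposited raw UMI counts per gene and barcode, and raw hashtag counts. Alignment used STAR and the build mm10, per the submitters' processing notes. The gene counter, its version and its use of strand are not stated in these sources, and coordinates are those of the GENCODE annotation of GRCm38. Barcodes were kept with at least 200 genes and at most 15% mitochondrial UMIs and given to a mouse by a hashtag holding at least 70% of at least 10 hashtag counts, which also dropped barcodes of mixed mice. No other doublet caller was run. UMIs were summed per mouse and tissue (70612 to 436713), so precision was lowest in tumor mouse 1.

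Sums were compared with edgeR 4.0.16 in R 4.3.3 (filterByExpr, TMM scaling, quasi-likelihood test, Benjamini-Hochberg over all genes tested, SE taken as the log2 fold change over the root of F). DESeq2 1.42.0, HTODemux of Seurat 5.3.0, library totals, no filter, other limits on cells, thinning, a replicate block and leaving out each mouse were alternatives. Exact tests used scipy 1.17.1 in Python 3.11.15. Intervals cover counting error only. A simulation of the tumor and blood sums left 3143 of its 3323 genes without a difference, and edgeR called 5 of those 3143. At a set 2-fold difference it found 53 of 95, and at a set 4-fold difference 80 of 85. In the real comparison 60.0% of genes tested were called, a much larger share than was altered in the simulation. The simulated rates may therefore not hold for the real comparison.

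All 9 genes are named. From each other list, the 3 called higher and the 3 called lower with the largest change are named, with any other gene marked as such; 1 gene that this rule names is not reported here. The neighbours are the 3 nearest tested genes. The members, lists and tests were chosen with earlier results of these data known.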

Additional observations from a re-analysis of the deposited data

How the results depend on the processing

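The calls of Nlrp3, Aim2, Casp1 and Nlrp12 between tumor and blood held in all 16 alternatives, and that of Gsdme in the 15 in which it was tested. Dropping the minimum of hashtag counts kept the same 841 tumor and 1375 blood cells, so that alternative only repeated the reported values. Nlrp3 ranged from 2.60 to 3.36, Aim2 from 1.48 to 2.25, Casp1 from -2.11 to -1.62, Nlrp12 from -3.59 to -2.76 and Gsdme from -5.10 to -2.88 (log2 fold change; Gsdme at -5.10 with HTODemux). Gsdmd and Casp4 passed in none, and Casp4 ranged from -0.0079 to 0.43 when a mouse was left out (-0.0079 without blood mouse 2). Its difference in the share of cells, tumor minus blood, was -2.14 percentage points before thinning and 0.124 after. Genes called numbered 2205 of 3674 tested, 1414 of 2102 at a limit of 5% mitochondrial UMIs (67.3%), 1354 of 2087 with thinned cells (64.9%), 2630 of 16032 without the filter, and 1682 to 2355 when a mouse was left out (1682 without tumor mouse 2). DESeq2 moved the median of all genes to -0.24 from -0.04, and called 1763 genes.

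With the hashtag number as a replicate block, 5 of the 9 genes and 2221 genes were called. The labels do not pair the numbers across tissues, so sums were not treated as pairs in the main fit. Deviations of same-numbered sums from their tissue mean had correlations of 0.0226, 0.00893 and -0.0228. Counting noise in sparse genes could hide a true pairing, so these values do not decide it. Whether a number is the same mouse in both tissues remains unknown. In granule-high blood cells, 2 of the 9 genes were called, but 0 with DESeq2, 1 with HTODemux and 1 to 2 when a mouse was left out. In granule-high tumor cells 1 was called, but 0 with DESeq2, with HTODemux, without the replicate block and with the highest 10% of cells, and 0 to 1 when a mouse was left out. The causes were not tested. For the interferon and hypoxia classes and the interaction terms, 0 of the 9 genes were called in any alternative run. Non-overlapping shares of cells were 5 with HTODemux and 6 to 7 when a mouse was left out, against 6.

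Few UMIs limit Pycard and Naip5 in both tissues and Gsdme, Nlrp12 and Casp1 in tumor. In the wider lists they limit Card9, Nlrp1b, Mapk14, Chmp1a and Bid in tumor.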
